A study of Mus musculus with 6 samples.

Results

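Among 21006 genes measured in the prefrontal cortex of aged mice, 8 code for receptors that answer glutamate or GABA through G proteins and were examined here: the metabotropic glutamate receptor genes Grm2, Grm3, Grm4, Grm5, Grm7 and Grm8, and the GABA-B receptor genes Gabbr1 and Gabbr2. They are a set of symbols, not a selection by a threshold on their values, and all 8 passed the filter on low levels. Mice with postoperative neurocognitive disorder (PND) were compared with control mice (CON), and in none of the 8 genes did the difference in mRNA pass the test. The log2 fold changes, PND minus CON on the log2(FPKM + 0.1) scale, lay between -0.18 for Grm4 and 0.21 for Grm2, and the groups overlapped in every gene.

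Metabotropic glutamate receptors sit in the membrane as dimers and fall into groups by sequence and by G protein. Group I receptors, such as mGlu5 from Grm5, couple to Gq and phospholipase C and lie mostly on the postsynaptic side of excitatory synapses. Group II receptors (Grm2, Grm3) and group III receptors (Grm4, Grm7, Grm8) couple to Gi and Go, lower cyclic AMP and mostly restrain transmitter release. The GABA-B receptor works as a pair of different subunits: the product of Gabbr1 binds GABA, and that of Gabbr2 carries the pair to the cell surface and activates the G protein. In cortex, GABA-B receptors open GIRK potassium channels after the synapse and close calcium channels before it, which gives slow inhibition.

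The animals were male C57BL/6 mice of 18 months, and no mutant allele was named for either group. That age is from the age label, while the sample titles carry a tag, 17M, that the labels do not explain. PND mice inhaled 1.5% isoflurane for 30 minutes and then had an exploratory laparotomy, the opening and inspection of the abdomen, that lasted another 30 minutes under isoflurane, with lidocaine cream and povidone iodine on the wound afterwards. CON mice had neither anesthesia nor operation, so the effects of the drug, the incision and the wound care cannot be told apart. Both groups went through open field, fear conditioning with foot shock and Barnes maze tests and were put under deep isoflurane when the tissue was taken, so the CON brains had also met the drug. By the paper's account, tissue was taken soon after the last Barnes maze test, several days after the operation, so earlier changes were not measured. Each group held 3 animals with 1 library each.

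Gene levels are given in FPKM, fragments per kilobase of exon scaled by depth. Levels of different genes can be set side by side only roughly, since this scaling leaves GC effects in place. Effective depth, estimated from the steps between low values, lay between 7191893 and 9386840 fragments. The tissue label was checked against marker genes. All 4 markers of upper cortical layers were detected and summed to 27.1–34.6 FPKM in PND and 25.9–39.6 FPKM in CON, all 4 of deep layers to 38.6–42.2 and 32.55–42.6 FPKM, and all 6 interneuron markers to 195–216 and 183–211 FPKM. All 6 markers of striatum, a neighbouring region, were present too, at 117–141 FPKM in PND and from 80.4 FPKM in CON replicate 2 to 188 FPKM in CON replicate 3. Summed astrocyte markers lay at 194–226 FPKM in PND and 200–208 FPKM in CON, oligodendrocyte markers at 211–272 and 238–266 FPKM, and microglial markers at 14.4–18.6 and 18.0–24.2 FPKM. Endothelial markers summed to 14.7–18.6 FPKM in PND and 12.4–15.0 FPKM in CON, and choroid plexus markers to 2.53–3.31 and 1.48–2.81 FPKM. Clic6 had the highest level of the choroid plexus markers. Ttr and Folr1, at most 0.2075 and 0.0545 FPKM in any animal, fell below the filter on low levels. Of the markers reported here, Gfap (astrocyte, limma unadjusted p = 0.00294), Ly6c1 (endothelium, unadjusted p = 0.00568) and Clic6 (choroid plexus, unadjusted p = 0.0319) were higher in PND before adjustment, and P2ry12 (microglia, unadjusted p = 0.00767) and Aqp4 (astrocyte, unadjusted p = 0.0275) were lower; their part in the receptor levels was not tested. These single genes do not stand for their lists. A positive log2 fold change was seen in 3 of 5 microglial, 4 of 6 astrocyte and 3 of 4 endothelial markers. The lower P2ry12 was thus not shared by most microglial markers. Because the tissue was sequenced in bulk, fewer cells of a type and less RNA per cell cannot be told apart.

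The 8 genes differed widely in base composition, and the sequences are shown because levels in single animals are set against GC content later. In the longest annotated transcript, GC made up 41.9% in Grm8, 42.5% in Grm5, 47.2% in Grm7, 47.6% in Grm3, 53.0% in Gabbr1, 56.0% in Gabbr2, 56.9% in Grm2 and 61.7% in Grm4. The 2 extremes, Grm4 and Grm8, are close relatives within group III. Their coding sequences (2736 and 2724 bases, GENCODE M21 on GRCm38) were 69.1% identical over 2719 aligned bases, yet GC made up 60.3% of the first and 47.1% of the second. A stretch of 120 coding bases shows this for a shared part of the receptor: Grm4 at chr17:27434587-27434706, minus strand, exon 9, and Grm8 at chr6:27363139-27363258, minus strand, exon 8. Capitals mark G and C, and the sequences run 5′ to 3′.
Grm4: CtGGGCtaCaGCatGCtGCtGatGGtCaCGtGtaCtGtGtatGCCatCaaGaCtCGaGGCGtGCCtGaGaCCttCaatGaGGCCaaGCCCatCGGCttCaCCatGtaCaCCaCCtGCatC
Grm8: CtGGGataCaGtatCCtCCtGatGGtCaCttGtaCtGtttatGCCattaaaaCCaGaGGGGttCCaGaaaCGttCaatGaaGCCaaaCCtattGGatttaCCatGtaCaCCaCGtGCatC
Of these 120 bases 98 were the same, and GC made up 55.8% of the Grm4 stretch and 44.2% of the Grm8 stretch.

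Averaged over the 6 animals, the order of levels was Grm5 (59.3 FPKM), Grm3 (54.4 FPKM), Gabbr1 (32.5 FPKM), Gabbr2 (27.7 FPKM), Grm7 (21.4 FPKM), Grm8 (4.36 FPKM), Grm4 (1.23 FPKM) and Grm2 (0.746 FPKM). Grm5 stood above 98.1% of the 18185 genes tested, and Grm2 above only 26.7%. Of the 7 neighbouring pairs in this order, 4 had ranges that stayed apart over the 6 animals: Grm3 over Gabbr1, Gabbr2 over Grm7, Grm7 over Grm8, and Grm8 over Grm4. The ranges of Grm5 and Grm3, of Gabbr1 and Gabbr2, and of Grm4 and Grm2 overlapped, and in each of these pairs 5 of 6 animals followed the order of the means. By the means, the widest step was from Grm7 to Grm8, with 4.04 to 5.88 times more Grm7 than Grm8 in each animal. Grm8 exceeded Grm4 by 1.83 to 7.43 times, so in single animals that step could be the wider one. Grm4 and Grm2, the lowest in level, were also the richest in GC, and the order was not corrected for GC content.

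**Figure D1:**
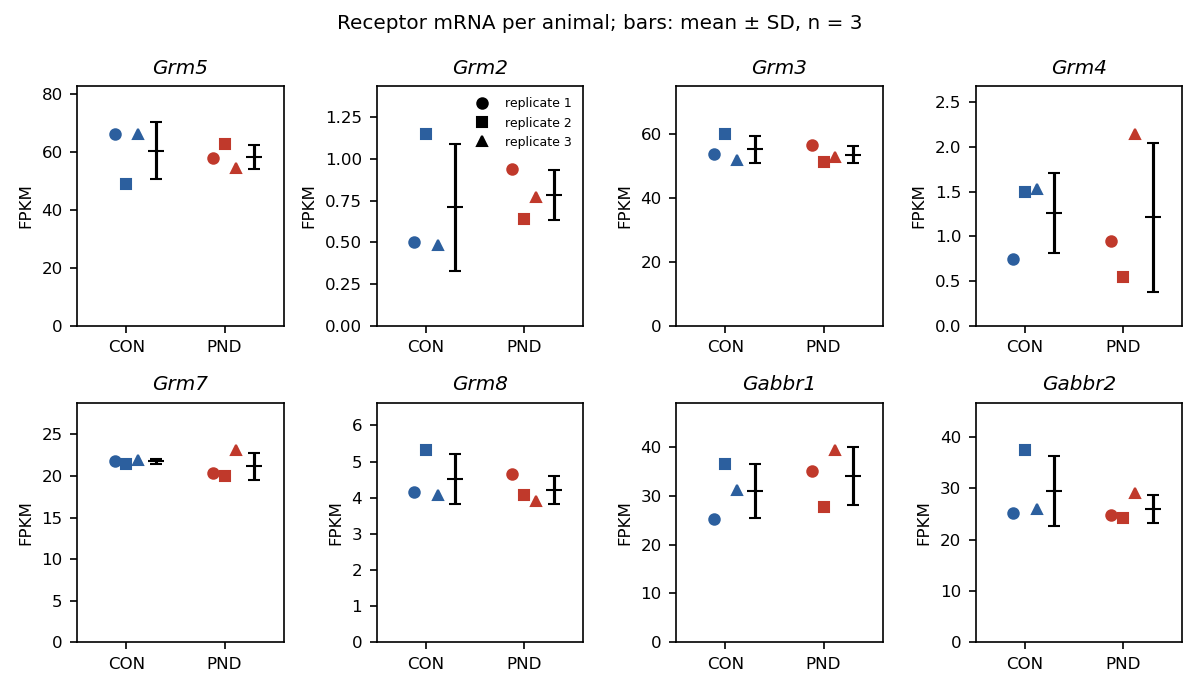
mRNA level of the 8 receptor genes in FPKM, with 1 panel per gene on its own linear axis from 0, 1 point per animal (3 CON in blue, 3 PND in red, replicates by symbol) and bars for the group mean ± SD. The points of the groups overlap for every gene, and CON replicate 2 is the highest animal for Grm2 (1.15 FPKM), Grm3 (60.0 FPKM), Grm8 (5.31 FPKM) and Gabbr2 (37.3 FPKM).

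Grm5 codes for mGlu5, the group I receptor of the set, and lies on chromosome 7 (87584168 to 88134907, plus strand, GRCm38). Its level was 57.7, 62.8 and 54.3 FPKM in PND replicates 1 to 3 and 66.2, 49.0 and 66.0 FPKM in CON replicates 1 to 3. The lowest value and the 2 highest values all came from CON animals, so the PND values lay inside the CON range. The mean of 58.3 ± 4.23 FPKM in PND compared with 60.4 ± 9.88 FPKM in CON (SD, n = 3 each). In limma the log2 fold change was -0.04 (SE 0.14), with unadjusted p = 0.790 and an adjusted p of 0.9999, a value shared by all 8 genes. The 95% interval ran from 0.773-fold to 1.23-fold.

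Grm3 and Grm2 are the group II genes. Grm3, on chromosome 5 (9485541 to 9725170, minus strand), is used by glia as well as neurons, and measured 56.5, 51.3 and 52.8 FPKM in PND and 53.8, 60.0 and 51.8 FPKM in CON. The groups overlapped, and the highest animal was a CON animal. Means of 53.5 ± 2.67 FPKM (SD, n = 3) in PND and 55.2 ± 4.31 FPKM (SD, n = 3) in CON gave a log2 fold change of -0.04 (SE 0.10, limma unadjusted p = 0.677), with an interval from 0.823-fold to 1.14-fold. Of the 6 astrocyte markers, Gfap and Aqp4 had moved in opposite directions before adjustment, as given with the markers.

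Grm2, mostly a presynaptic receptor gene, lies on chromosome 9 (106643095 to 106656082, minus strand). It measured 0.936, 0.642 and 0.769 FPKM in PND and 0.499, 1.15 and 0.483 FPKM in CON. CON replicate 2 was the highest of the 6 animals and the other CON animals were the lowest. The log2 fold change was 0.21 (SE 0.37, limma unadjusted p = 0.596), and the 95% interval ran from 0.632-fold to 2.10-fold. Each animal contributed at most an estimated 45.8 fragments of Grm2, and part of its exons overlaps Gm28111 on the opposite strand, where reads cannot be told apart without strand. Grm3 exceeded Grm2 by 60.3 to 79.8 times in PND and by 52.3 to 108 times in CON. Grm2 is the richer in GC of the pair, and these ratios were not corrected for GC content.

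Grm7, on chromosome 6 (110645581 to 111567230, plus strand), codes for a low-affinity group III receptor of the presynaptic active zone. A small part of its exons overlaps Gm20387 on the opposite strand. Its level was 20.3, 20.0 and 23.1 FPKM in PND and 21.8, 21.4 and 22.0 FPKM in CON. The CON values lay close together, at 21.7 ± 0.265 FPKM (SD, n = 3), inside the wider PND range of 21.1 ± 1.67 FPKM (SD, n = 3). Grm7 had the smallest SD within groups of the 8 genes (0.0795 on the log2 scale), a log2 fold change of -0.04 (SE 0.10, limma unadjusted p = 0.688) and an interval from 0.819-fold to 1.15-fold.

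Grm8, also on chromosome 6 (27275119 to 28135178, minus strand), measured 4.66, 4.07 and 3.92 FPKM in PND and 4.15, 5.31 and 4.07 FPKM in CON. The highest animal was CON replicate 2 and the lowest PND replicate 3, with the others in between and mixed. A small part of its exons overlaps the microRNA gene Mir592 on the same strand. Its log2 fold change was -0.09 (SE 0.17, limma unadjusted p = 0.622), with an interval from 0.716-fold to 1.24-fold.

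Grm4, on chromosome 17 (27422387 to 27521403, minus strand), had the widest spread. It measured 0.944, 0.548 and 2.14 FPKM in PND and 0.743, 1.50 and 1.53 FPKM in CON. Both the lowest and the highest animal belonged to PND. With means of 1.21 ± 0.830 and 1.26 ± 0.445 FPKM (SD, n = 3 each), the log2 fold change was -0.18 (SE 0.49, limma unadjusted p = 0.729) and the interval ran from 0.397-fold to 1.97-fold.

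Gabbr1, the GABA-binding subunit gene, lies on chromosome 17 (37045966 to 37075067, plus strand). It measured 35.1, 27.6 and 39.2 FPKM in PND and 25.3, 36.4 and 31.1 FPKM in CON. The highest animal was a PND animal and the lowest a CON animal, with the other 4 mixed between the groups. Means of 34.0 ± 5.89 and 30.9 ± 5.55 FPKM (SD, n = 3 each) gave a log2 fold change of 0.14 (SE 0.18, limma unadjusted p = 0.472), with an interval from 0.821-fold to 1.47-fold.

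Gabbr2, the G protein-coupling subunit gene, lies on chromosome 4 (46662305 to 46991873, minus strand). It measured 24.7, 24.1 and 29.0 FPKM in PND and 25.1, 37.3 and 25.9 FPKM in CON. CON replicate 2 stood above the other 5 animals, and without it the log2 fold change went from -0.16 to 0.02. The means were 25.9 ± 2.64 and 29.4 ± 6.82 FPKM (SD, n = 3 each), with SE 0.17, limma unadjusted p = 0.374 and an interval from 0.674-fold to 1.18-fold.

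**Figure D2:**
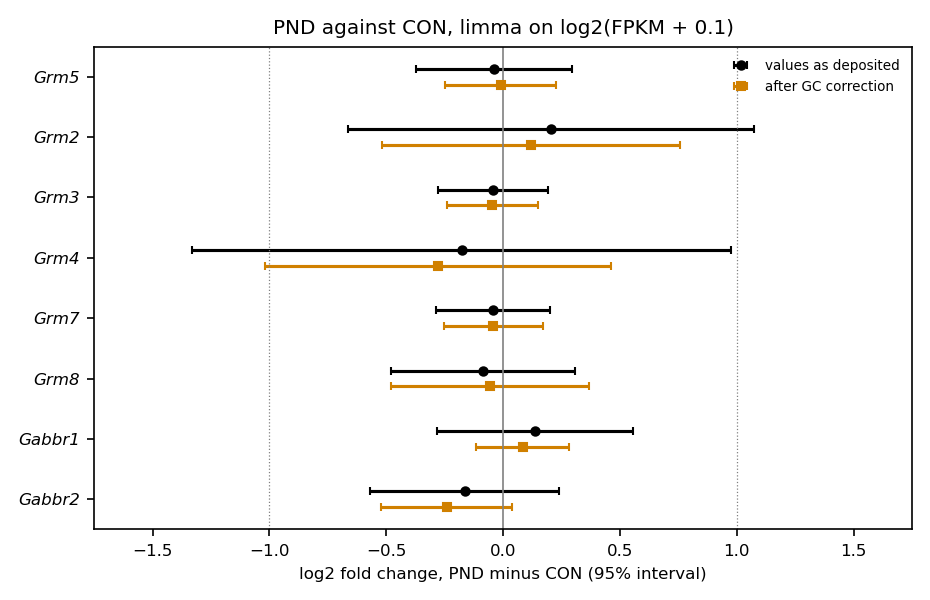
Difference between PND and CON (log2 fold change, PND minus CON) for the 8 receptor genes, with 95% intervals from limma over 3 PND and 3 CON animals, for the values as deposited (black) and after a correction for GC content (orange). Dotted lines mark the study's fold limit. Every interval includes 0, and as deposited they are widest for Grm4 (-1.33 to 0.98) and Grm2 (-0.66 to 1.07), the genes with the lowest levels.

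Counted together, 0 of the 8 genes had an unadjusted p below 0.05 in limma, against 3.13% of all 18185 genes tested, and 0 of 8 had groups that did not overlap, against 7.66%. None had an adjusted p below 0.05, a mark that 0.0110% of genes reached, and none passed the study's cut-off of a fold change above 2 with p below 0.05, against 1.33%. At these shares a list of 8 genes would hold few or no such genes, so the counts of 0 did not set the receptors apart from other genes. An exact permutation test gave p between 0.5 and 0.9 for the single genes, where 3 against 3 animals cannot go below 0.1. The median log2 fold change of the 8 was -0.04, beside 0.01 over all genes. A positive value was found in 2 of the 8 (Gabbr1 and Grm2), beside 9529 of all 18185 genes tested. The median size of the change, without its sign, was 0.11 for the receptors, 0.16 for all genes tested and 0.12 for the 12387 genes that averaged 1 FPKM or more, which do not include Grm2.

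How small a change could have been seen depended on the gene. For Grm3, Grm7 and Grm5 the intervals excluded a fall below 0.773-fold or a rise above 1.23-fold, and for Grm4 a fall to 0.397-fold stayed within the interval. Counting error alone would give a coefficient of variation of 17.6% for Grm2 in PND and 21.2% in CON, near the observed 18.9% in PND but below the observed 53.4% in CON. In Grm4 the estimated counting error was 14.9% in PND and 14.0% in CON, against an observed 68.5% and 35.4%. In Grm5, with an estimated 4087 to 5236 fragments per animal, counting error was 1.39% and 1.47% and the observed variation 7.26% and 16.4%. An SD of 3 animals is itself uncertain, as Grm7 in CON shows, where the observed 1.22% lay under the estimated counting error of 3.21%. Fragment numbers are estimates, and they cover counting error only.

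The GABA-B subunits were also compared with each other within each animal, since the receptor needs both. The ratio of Gabbr2 to Gabbr1 mRNA was 0.704 to 0.872 in PND (mean 0.771 ± 0.0886, SD, n = 3) and 0.834 to 1.02 in CON (0.950 ± 0.102, SD, n = 3). The ranges overlapped, with the highest PND animal above the lowest CON animal. No p is given for a value built from several members.

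**Figure D3:**
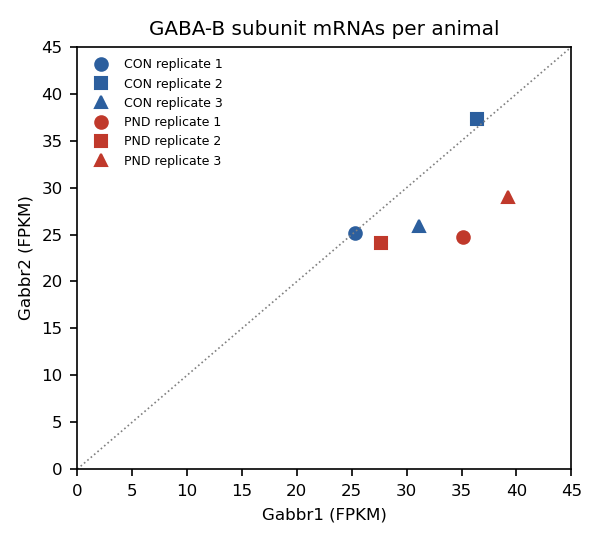
Gabbr2 against Gabbr1 mRNA in each animal, both in FPKM, with 1 point per animal (3 PND, 3 CON) and a line where both are equal. All 3 PND animals lie below the line, as do the CON animals except 1 whose ratio is 1.02.

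The summed level of the 6 metabotropic glutamate receptor genes was 139 ± 2.05 FPKM in PND against 144 ± 4.70 FPKM in CON (SD, n = 3 each), and that of all 8 genes 199 ± 7.25 and 204 ± 7.37 FPKM. Group II genes summed to 54.3 FPKM in PND and 55.9 FPKM in CON, nearly all of it Grm3. Group III genes summed to 26.6 and 27.5 FPKM, most of it Grm7.

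In 4 of the 6 animals, the genes richest in GC lay on the same side of their means. Grm4, Grm2, Gabbr2 and Gabbr1, the 4 members with the highest GC, were all below their own 6-animal mean in CON replicate 1 (median deviation -0.39 on the log2 scale) and in PND replicate 2 (-0.20). All 4 were above it in CON replicate 2 (0.42) and in PND replicate 3 (0.19), while 1 of 4 was above it in CON replicate 3 and 2 of 4 in PND replicate 1. These genes did not follow each other alone: over the 6 animals Grm2 had Pearson r of 0.27 with Grm4 but 0.82 with Grm3 and 0.79 with Grm8, both lower in GC, and Gabbr2 had r of 0.73 with Grm3. Over the 8 genes, Spearman's rho between deviation and GC was -0.83, 0.69 and 0.05 in CON replicates 1 to 3 and -0.19, -0.79 and 0.74 in PND replicates 1 to 3. Over 12323 genes of at least 1 FPKM with a GC value it was -0.61, 0.54 and -0.11 in CON and 0.18, -0.45 and 0.57 in PND. The receptors thus had the sign of the wider gene set in 4 of the 6 animals, those with the steepest relations. These values are a description, because the genes of 1 library share its preparation.

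**Figure D4:**
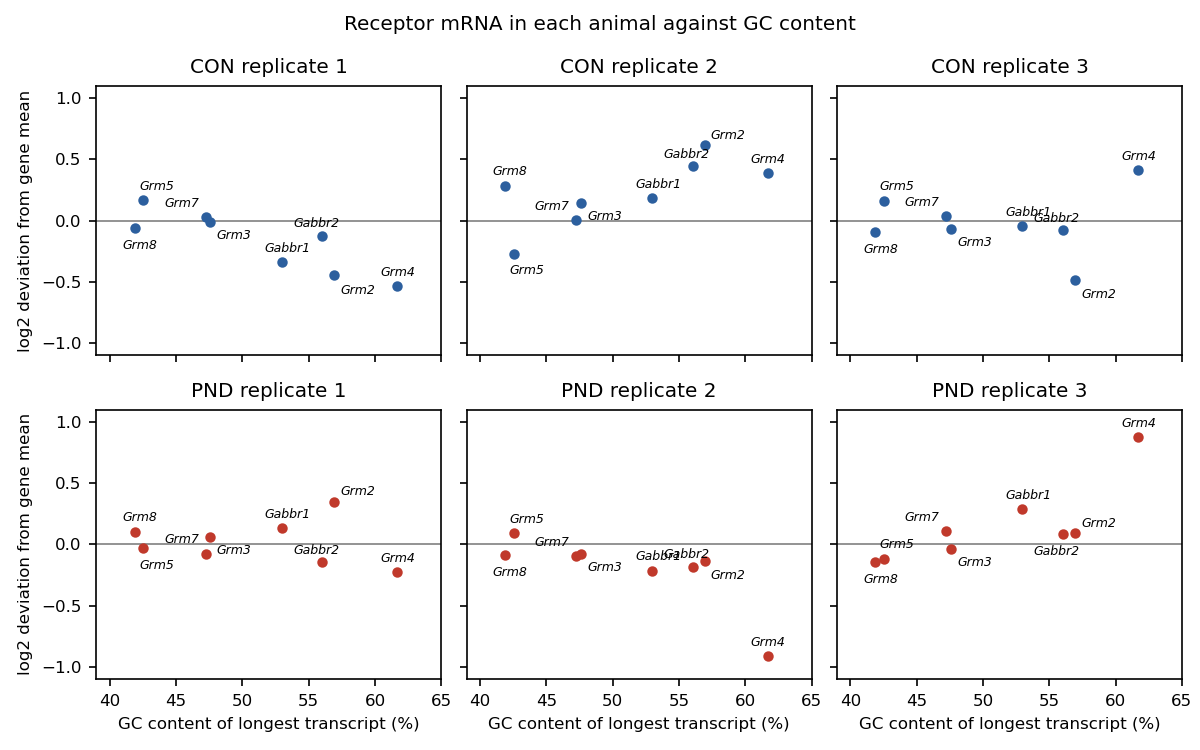
Deviation of each receptor gene from its own mean over the 6 animals (log2 scale) against the GC content of its longest transcript in percent, with 1 panel per animal (3 CON above, 3 PND below). Points fall with GC in CON replicate 1 and PND replicate 2 and climb with GC in CON replicate 2 and PND replicate 3.

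A correction for GC, which removes a smooth trend within each sample, narrowed the spread within groups for 6 of the 8 genes. For Gabbr1 the SD on the log2 scale went from 0.260 to 0.0747, for Grm4 from 0.745 to 0.434, and for Grm2 from 0.472 to 0.294. It widened for Grm8, from 0.174 to 0.239, and slightly for Grm7, from 0.0795 to 0.0823. With the correction the log2 fold change of Gabbr2 was -0.24 (95% interval -0.52 to 0.04, limma unadjusted p = 0.0815), the smallest p that any member reached in any alternative. Corrected values of Gabbr1 (0.08, limma unadjusted p = 0.355) and Grm4 (-0.28, limma unadjusted p = 0.405) also stayed short of the threshold. Part of the narrowing follows from how the correction is built.

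Beyond the receptors, 51 genes of their pathways were looked at by role. All 51 were tested, and 0 had an unadjusted p below 0.05 in limma (0 adjusted), against 3.13% of all genes. Of the 51, 30 had a positive log2 fold change, beside 9529 of all 18185 genes tested. The median of the 51 was 0.01, the same as over all genes at this rounding. By role, the number with a positive value was 7 of 10 scaffolds and receptor partners, 1 of 4 GABA-B auxiliary subunits, 3 of 5 GIRK and presynaptic calcium channels, 4 of 7 G protein subunits, 4 of 9 second messenger enzymes and channels, 4 of 7 regulators of G proteins and desensitisation, and 7 of 9 genes of glutamate and GABA supply and clearance.

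The 6 pathway genes with the smallest p were Cacna1b, Glul, Ajap1, Homer1, Kctd8 and Arrb1. Cacna1b codes for the N-type calcium channel that GABA-B and group III receptors close, and measured 7.504 ± 1.002 FPKM in PND against 5.28 ± 2.05 FPKM in CON (SD, n = 3 each), with a log2 fold change of 0.55 (SE 0.26, limma unadjusted p = 0.0711). CON replicate 2, at 7.64 FPKM, lay among the PND animals. With 1 sample left out, the log2 fold change ranged from 0.38 (without CON replicate 1, limma unadjusted p = 0.200) to 0.85 (without CON replicate 2, unadjusted p = 0.00201, adjusted p = 0.757). Glul codes for glutamine synthetase, which turns the glutamate taken up by astrocytes into glutamine, and measured 420 ± 24.8 FPKM in PND against 361 ± 44.0 FPKM in CON (SD, n = 3 each), a log2 fold change of 0.23 (SE 0.12, limma unadjusted p = 0.0940).

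Homer1 codes for the scaffold that holds mGlu5 at the postsynaptic density. It measured 21.5 ± 1.33 FPKM in PND against 25.9 ± 5.80 FPKM in CON (SD, n = 3 each), with a log2 fold change of -0.25 (SE 0.18, limma unadjusted p = 0.203). CON replicate 1, at 19.6 FPKM, was the lowest of the 6 animals. With 1 sample left out, the log2 fold change ranged from -0.10 (without CON replicate 3, limma unadjusted p = 0.574) to -0.43 (without CON replicate 1, unadjusted p = 0.00982, adjusted p = 0.899). Ajap1 and Kctd8 code for proteins that attach to the GABA-B receptor. Ajap1 had 10.1 ± 1.22 FPKM in PND against 12.4 ± 2.88 FPKM in CON (log2 fold change -0.27, limma unadjusted p = 0.187), and Kctd8 had 2.42 ± 0.722 and 3.06 ± 0.497 FPKM (-0.35, limma unadjusted p = 0.205). Arrb1, which codes for a beta-arrestin that uncouples activated receptors, had 10.2 ± 3.85 and 7.34 ± 4.27 FPKM (0.55, limma unadjusted p = 0.224). With 1 sample left out, Ajap1 ranged from -0.38 to -0.09 (the latter without CON replicate 1), Kctd8 from -0.57 to -0.15 (without PND replicate 3), Arrb1 from 0.26 (without CON replicate 1) to 0.99 (without CON replicate 3), and Glul from 0.14 to 0.32.

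**Figure D5:**
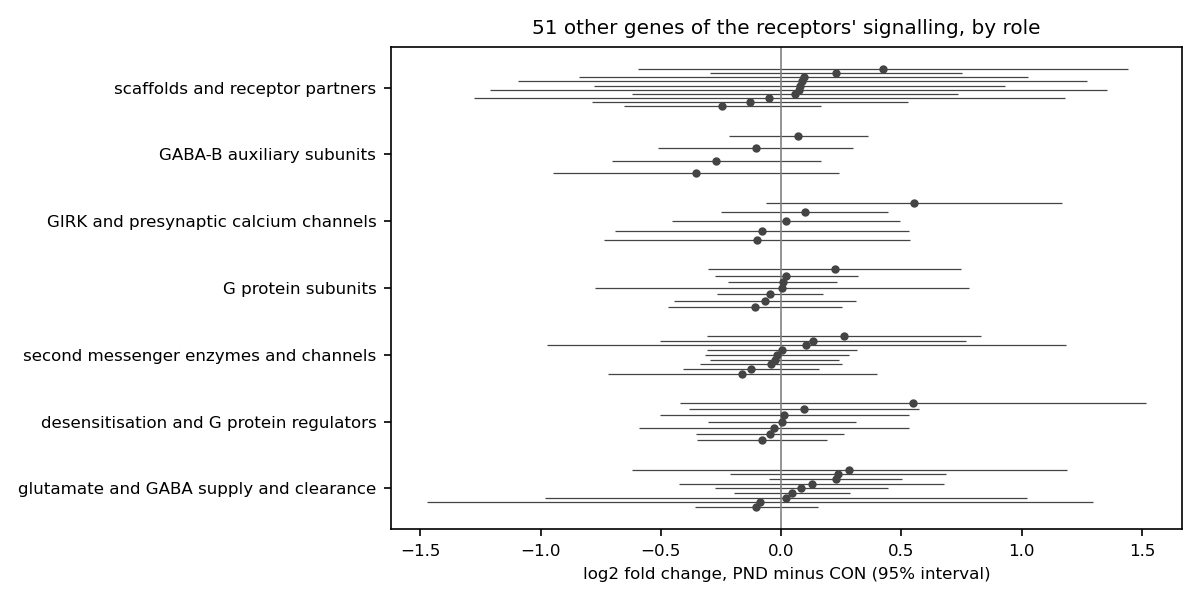
Difference between PND and CON (log2 fold change, PND minus CON) for the 51 pathway genes grouped by role, with 1 point per gene and a line for its 95% interval from limma over 3 PND and 3 CON animals. Points of every role lie on both sides of 0, and every interval includes 0.

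The likeness of other genes to the receptors was measured by Pearson's r over the 6 animals. Among 12380 genes averaging 1 FPKM or more, those closest to the mean standardised profile of the 8 receptors were Snrpb (r = 0.998), Zfr2 (0.997) and Pym1 (0.997). The mean profile does not stand for each receptor, since Grm5 had a negative r with all 7 others, from -0.93 with Grm2 to -0.14 with Grm7. With 6 points per gene, high values of r are common among so many genes. In likeness to Gabbr1, Gabbr2 had rank 3824 among 12386 genes (r = 0.589 over the 6 animals), and Gabbr1 had rank 2921 in likeness to Gabbr2, although the receptor needs both products.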

How the data were processed

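mRNA was measured in 6 prefrontal cortex samples (3 PND, 3 CON), grouped by their treatment labels and numbered by their titles. The deposited FPKM were made by the authors, who removed ribosomal RNA, sequenced on an Illumina instrument, filtered reads with Seqtk, aligned with HISAT2, counted with StringTie and scaled by TMM. The submitters' processing notes also list Bowtie 0.12.2, mm8 and mm9 without a role. Annotation and strand are not given in the sources used here. TMM and per-length scaling leave composition and GC effects within a sample in place. Values of log2(FPKM + 0.1) were fitted with limma 3.58.1 (R 4.3.3, lmFit, eBayes with an intensity trend, no covariate, two-sided) over 18185 genes averaging 0.1 FPKM or more; this scale understates changes of low genes. Adjusted p-values are Benjamini-Hochberg over all of these genes. GENCODE M21 on GRCm38 gave coordinates, exon lengths and GC, and 20866 of 21006 identifiers had a symbol. None of the 15 sample pairs held identical values. Each sample is 1 animal.

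The receptors and the lists were chosen with earlier results of these data known. All 8 receptors were named, with the 6 pathway genes of smallest p, the 3 genes most like the mean receptor profile, and markers where counted. The list of excitatory neuron markers is not reported here. The steps of the low values (41.1% to 44.7% within 0.05 of a whole fragment, against 10% without steps) gave the estimated depth but not whole reads, so no count test was run. Alternatives changed the pseudocount, the filter, the scaling, the trend, a GC correction, a replicate block and each sample in turn.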

Additional observations from a re-analysis of the deposited data

How the results depend on the processing

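None of the 8 receptor genes had a limma p below 0.05 under any of 16 alternatives (127 fits), with the smallest p, 0.0815, for Gabbr2 under the GC correction. Directions changed in 7 fits, all with 1 sample left out: the log2 fold change ranged from -0.18 to 0.0335 for Grm5, -0.0883 to 0.0182 for Grm3, -0.66 to 0.24 for Grm4, -0.16 to 0.0340 for Grm8 and -0.27 to 0.0185 for Gabbr2, where CON replicate 2 decided the sign for Grm3, Grm8 and Gabbr2, PND replicate 2 for Grm4, and PND replicate 3, CON replicate 1 or CON replicate 3 for Grm5. The 2 positive genes kept their sign but not their size: Grm2 ranged from 0.0158 (without CON replicate 3) to 0.565 (without CON replicate 2), and Gabbr1 from 3.96e-05 (without CON replicate 1) to 0.278 (without PND replicate 2). Over all genes, 241 passed the study's cut-off, against 25 with a pseudocount of 1 and 59 among genes averaging 1 FPKM or more (Grm2 had no value there), and 235 to 388 with 1 sample left out (388 without CON replicate 2). Unadjusted p was below 0.05 for 569 genes, 331 with the higher filter, 361 with the replicate block and 406 to 960 with 1 sample left out. Adjusted p was below 0.05 for 2 genes, for 0 with a pseudocount of 1, no filter, quantile normalization, median centring or the block, with or without the GC correction, for 3 with the GC correction alone and for 0 to 5 with 1 sample left out. Of the 51 pathway genes, 0 had p below 0.05, against 1 with quantile normalization (Glul), median centring, the GC correction and that correction with the block (Cacna1b each time) and 0 to 3 with 1 sample left out (Slc1a2, Homer1 and Glul without CON replicate 1, Cacna1b and Elfn2 without CON replicate 2, Arrb1 without CON replicate 3; Slc1a2 and Elfn2 were named after their values were seen). The causes were not tested.

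The replicate numbers are shared across groups, and same-numbered samples deviated together with r of -0.0487, -0.451 and 0.0274. Differently numbered samples had r from -0.418 (PND replicate 3, CON replicate 1) to 0.427 (PND replicate 2, CON replicate 1). Libraries of both groups also differed in their relation to GC, so these r cannot decide whether same-numbered samples were paired. With the replicate block 226 genes passed the cut-off and 0 receptor genes had p below 0.05. With 3 animals a group, changes of low genes such as Grm4 and Grm2 inside their wide intervals were not detectable, and at most 45.8 estimated fragments per animal stood behind Grm2.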
